A study of Oncorhynchus mykiss with 42 samples.

Results

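A set of 37 complementary DNA clones was picked out because their signal in rainbow trout testis fragments was higher after culture with follicle-stimulating hormone (FSH) than without hormone, and on average little changed by luteinizing hormone (LH). The set comes from 8175 arrayed clones with values, of which it is 0.453%. A clone was kept when its mean log2 value with FSH exceeded that of the hormone-free control (Ctrl) by at least 0.25 in each of 2 testis stages, named I-II and III in the labels, and when its LH minus Ctrl difference, averaged over both stages, was below 0.15. All comparisons of FSH, LH and Ctrl given here for the 37 clones therefore describe the values that chose them. Where a model's calls for these contrasts are counted, they are set beside the share of all clones called and are no test of the set. The files used here do not pair the clones with genes, so that 0 of them could be named and neither the tissue nor any pathway could be checked against its marker genes.

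The fragments came from whole testes of an all-male rainbow trout (Oncorhynchus mykiss) population. Per the labels, they lay on inserts in a modified L15 medium with Ultroser SF and were kept at 12 °C for 96 h, with the medium renewed at 48 h. One set of wells had no hormone, another received purified salmonid FSH and the third purified salmonid LH, each hormone at 500 ng/mL. For each stage there were 6 arrays per cultured group and 3 arrays of tissue taken before culture (T0), 42 arrays in all. No label says which fish an array came from, so that a stage and the fish it was sampled from cannot be told apart, and the spread between arrays of a group may be that between wells rather than between animals. Because tissue RNA was measured in bulk, fewer cells of a type and less RNA per cell cannot be told apart.

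FSH and LH are pituitary glycoprotein hormones that share their alpha subunit and differ in their beta subunit. In the vertebrate testis the FSH receptor is best known from Sertoli cells, which nurse the germ cells, and the LH receptor from Leydig cells, which make androgens. In several fish species Leydig cells carry the FSH receptor as well, and FSH is a steroidogenic hormone there. Setting the hormones side by side asks which transcripts answer one of them and not the other.

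Each array was hybridised with 33P-labelled complementary DNA from 5 µg of total RNA, and the deposited value of a clone is a log2 number per array. Arrays of a group correlated with each other at 0.934 to 0.986 over the clones, and the median scanner signal of the clones ran from 85 to 171 over the 42 arrays. An array position was taken as above background when its signal exceeded the median of presumed empty positions by 3 scaled median absolute deviations, which held for 58.0% to 76.7% of positions. Array positions could be inferred for 35 of the 37 clones, and 20 of these 35 were above background on every array. The like share over all located clones is not given here, so this count does not place the set as dim or bright. Group differences are taken within a clone. Signals are compared between clones only for the brightness of adjoining spots and to pick the brighter clones for an alternative fit.

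With FSH, the median difference from Ctrl over the 37 clones was 0.355 at stage I-II and 0.36 at stage III, on the log2 scale. The medians over all 8175 clones were -0.007 and -0.002. The differences were small for most of the set: they ran from 0.258 to 0.90 in stage I-II and from 0.257 to 1.107 in stage III, and 17 clones stayed below 0.4 in both stages. In 12 clones the difference reached 0.5 in at least one stage, and 2 clones, tcbk0035.l.03 and tcad0009.j.11, reached it in both. The difference was greater in stage I-II for 14 clones, equal in both stages for 1rt141d20_d_b10 (0.388), and greater in stage III for the others. With LH the median difference from the same Ctrl arrays was 0.03 in stage I-II, against 0.018 over all clones, and 0.098 in stage III, against -0.007. In the scanner signal, at positions inferred from the order of the identifiers, the stage I-II LH median was 0.119, and the median of FSH minus LH was 0.212 instead of 0.332.

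**Figure D1:**
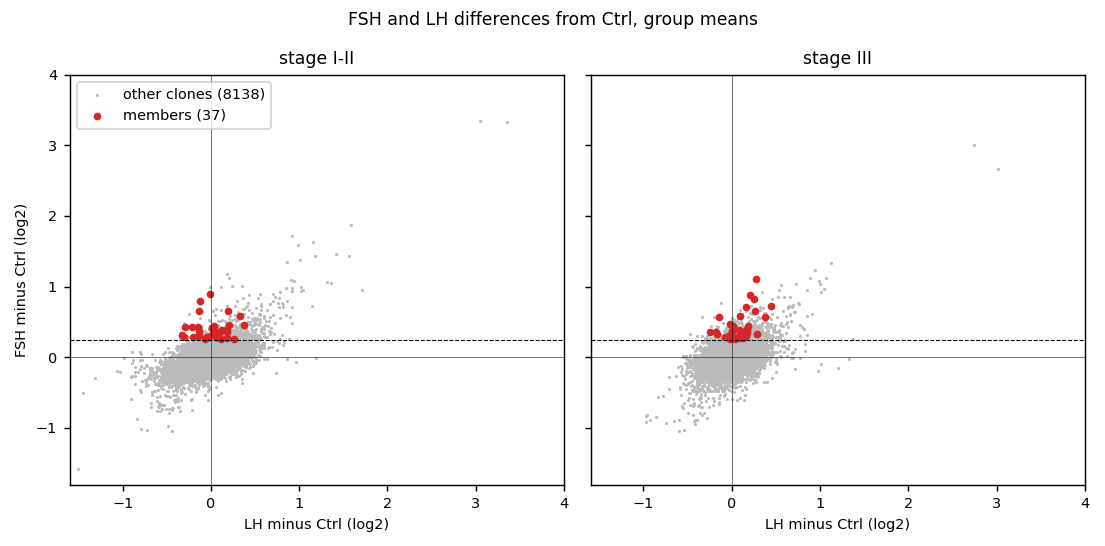
Differences of group means from Ctrl for 8175 clones in stage I-II (left) and stage III (right), with LH minus Ctrl on the horizontal axis and FSH minus Ctrl on the vertical axis, both in log2 units and both sharing the Ctrl arrays. The 37 clones of the set (red) lie above the dashed line at 0.25 by the rule that chose them, and most lie between that line and 0.5.

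The 6 clones with the greatest mean difference between FSH and LH lead the set and are described by array. In stage I-II, tcbk0035.l.03 had Ctrl values from 8.72 to 9.15 with a median of 8.975. Its FSH values ran from 9.47 to 10.25 with a median of 9.90. Its LH values ran from 8.08 to 9.34 with a median of 9.055. Every FSH array was thus above every Ctrl and every LH array, and LH and Ctrl overlapped. In stage III its Ctrl values ran from 7.25 to 7.99 with a median of 7.81, its FSH values from 8.45 to 9.37 with a median of 8.87, and its LH values from 7.78 to 8.31 with a median of 7.935. The order was the same as in stage I-II with no overlap of FSH with the other groups, at a level lower in each cultured group. FSH minus Ctrl was 0.90 at stage I-II and 1.107 at stage III, or 1.87-fold and 2.15-fold, with a standard error of 0.248 from the fit to all clones. That error pools the spread of all 8 groups, and the SD of the stage III T0 arrays of this clone was 1.566. In its cultured groups the SD ran from 0.157 to 0.443. Averaged over the stages, LH minus Ctrl of this clone was 0.135. The clone met the rule in 31 of 36 repeats that each left out an array. It did not meet the rule at an LH threshold of 0.10, nor in the scanner signal placed by profile or by order. Under the other settings tried it did.

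Clone tcad0009.j.11 had Ctrl values from 6.97 to 7.52 (median 7.40) in stage I-II. FSH arrays read 7.73 to 8.51 (median 7.95) and LH arrays 6.78 to 7.49 (median 7.225). In stage III the Ctrl arrays read 6.37 to 7.21 (median 6.78), the FSH arrays 7.47 to 7.96 (median 7.63) and the LH arrays 6.62 to 7.21 (median 6.995). FSH arrays lay above all others in both stages, while LH and Ctrl arrays overlapped. FSH minus LH was 0.79 at stage I-II and 0.675 at stage III.

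For 1rt41k06_c_f03 the stage I-II arrays ran from 10.12 to 10.54 (median 10.225) in Ctrl, from 10.34 to 10.99 (median 10.765) with FSH and from 9.89 to 10.63 (median 10.06) with LH. FSH was the highest group by its median, and its lower arrays fell within the range of both other groups. In stage III the arrays ran from 9.22 to 9.73 (median 9.495) in Ctrl, from 10.09 to 10.66 (median 10.185) with FSH and from 9.39 to 9.98 (median 9.725) with LH. There all FSH arrays were above all Ctrl and all LH arrays.

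Clone tcbp0001.g.12 was dim. In stage I-II it read 6.73 to 6.92 (median 6.84) in Ctrl, 6.70 to 7.58 (median 7.145) with FSH and 6.03 to 7.11 (median 6.58) with LH, and all groups overlapped. In stage III it read 5.95 to 6.50 (median 6.215) in Ctrl, 6.50 to 7.31 (median 6.965) with FSH and 6.02 to 6.75 (median 6.37) with LH. At its position on the arrays, 4 of 6 LH arrays of stage III were above background. Of the Ctrl arrays of that stage 0 of 6 were, and of the FSH arrays 6 of 6. Its scanner signal with FSH was therefore at least 1.32-fold higher than in Ctrl, with the Ctrl arrays set at the lowest signal above background where they fell below it.

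For tcac0003.j.19 the difference in stage I-II rested on 2 arrays. The FSH arrays read 9.35, 7.25, 5.86, 5.65, 5.59 and 5.55, against 5.46 to 5.97 (median 5.765) in Ctrl and 5.41 to 5.81 (median 5.625) with LH. The FSH median of 5.755 was thus level with that of Ctrl, and without the array at 9.35, replicate 26, FSH minus Ctrl was 0.233, below the threshold of the rule. Those 2 arrays were the only ones of the 42 on which the clone's position was above background. A neighbouring position carried a spot 50.1 times brighter, and the part of that spot in the result was not tested. In stage III, where no array was above background, FSH values of 5.48 to 6.14 (median 5.77) overlapped the Ctrl values of 5.39 to 5.65 (median 5.45).

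Clone tcbk0038.n.14 had LH means below Ctrl and LH arrays that overlapped with Ctrl in both stages. In stage I-II it read 8.45 to 8.84 (median 8.75) in Ctrl, 8.73 to 9.39 (median 9.085) with FSH and 8.10 to 8.77 (median 8.345) with LH. In stage III it read 7.97 to 8.42 (median 8.185) in Ctrl, 7.38 to 9.06 (median 8.635) with FSH and 7.91 to 8.53 (median 7.985) with LH. FSH overlapped with both groups in both stages, and its lowest stage III array, replicate 65, was below every Ctrl array. FSH minus Ctrl there was 0.285, and 0.502 without that array or 0.166 without replicate 62. LH minus Ctrl was -0.297 at stage I-II and -0.072 at stage III. A touching spot was 7.74 times brighter, with LH minus Ctrl of -0.227 and -0.39, and its part in the result was not tested.

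**Figure D2:**
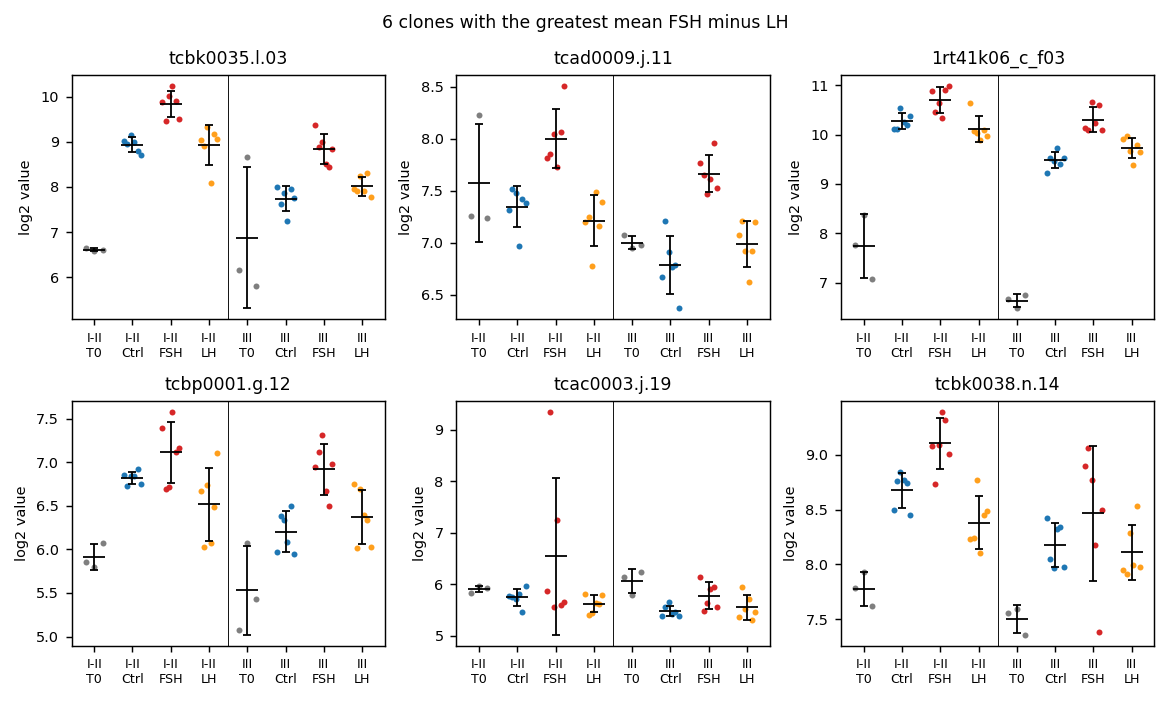
Deposited log2 value on each array for the 6 clones with the greatest mean FSH minus LH, by stage (I-II, III) and treatment (T0, Ctrl, FSH, LH). Points are arrays (6 per cultured group, 3 at T0) and bars show the mean and the SD; FSH arrays of tcbk0035.l.03 and tcad0009.j.11 stand above all Ctrl and LH arrays of their stage, and the stage I-II FSH mean of tcac0003.j.19 is lifted by 2 arrays.

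The next clones in this order had smaller differences. For tcay0004.j.03, FSH arrays of stage I-II (7.98 to 8.25) were above all Ctrl (7.45 to 7.93) and all LH arrays (7.46 to 7.97). In stage III its FSH arrays (7.89 to 8.22) were above all LH arrays (7.37 to 7.81) and overlapped with Ctrl (7.52 to 7.90). Clone tcay0019.j.04 showed LH differences of opposite sign: LH minus Ctrl was -0.21 at stage I-II and 0.45 at stage III, the highest LH difference in the set. Its FSH minus Ctrl was 0.43 and 0.72. Its average over the stages kept it below the LH threshold although LH was well above Ctrl in stage III.

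The converse held for 1rt52b16_d_a08. Its LH minus Ctrl was 0.37 at stage I-II and -0.14 at stage III, while FSH minus Ctrl was 0.46 and 0.57. FSH and LH were thus 0.09 apart in stage I-II and 0.71 apart in stage III, where no FSH array (8.34 to 8.84) overlapped with the LH arrays (7.58 to 8.18). In stage I-II, tcbk0043.n.05 read 0.28 higher with FSH than with LH. In stage III that difference was 0.61, with LH minus Ctrl at -0.25. For tcbk0045.m.04 FSH minus LH was 0.48 and 0.43 in the 2 stages.

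Among the other clones ranked from the 11th to the 20th place, FSH minus LH averaged over the stages was 0.41 for 1rt146d02_d_b01, 0.39 for tcbk0035.k.02 and 0.37 for tcbk0043.m.07. It was 0.36 for tcbk0057.c.10, 0.35 for 1rt76a17_a_a09, 0.35 for tcba0029.p.03 and 0.35 for 1rt49p18_d_h09. For tcbk0052.f.04 and tcac0002.l.06 it was 0.32. The range of the FSH arrays overlapped with those of LH and of Ctrl in each stage for all of these, except that the stage I-II FSH arrays of tcba0029.p.03 (8.27 to 8.85) were above all its Ctrl arrays (7.70 to 8.13). The remaining 17 clones had averages from 0.18 to 0.31. Their FSH minus Ctrl ran from 0.258 to 0.583 at stage I-II and from 0.257 to 0.405 at stage III, so that 1rt85c09_a_b05, at 0.58, was the one clone among them to reach 0.5.

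**Figure D3:**
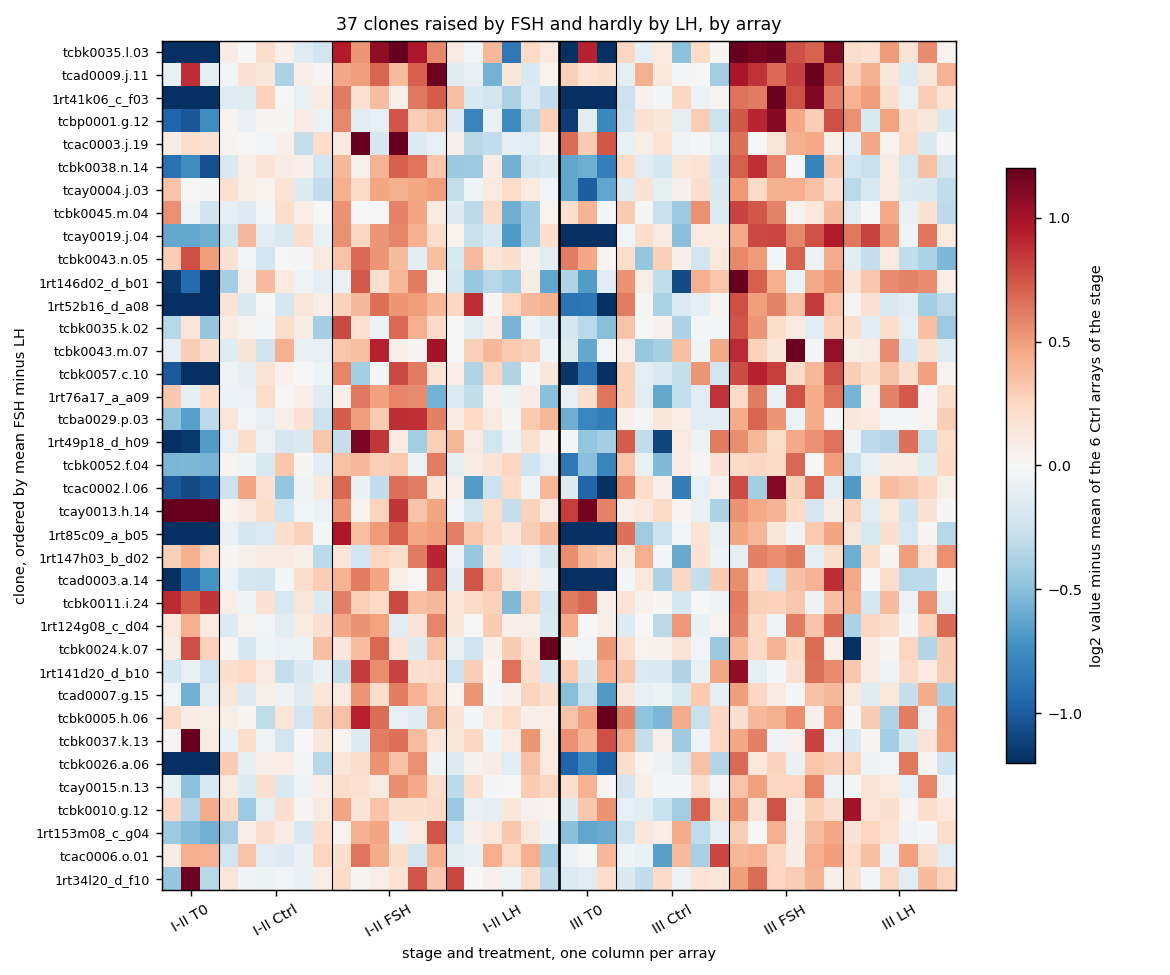
Each of the 42 arrays (columns, grouped by stage and treatment) for the 37 clones (rows, ordered by mean FSH minus LH), coloured by the log2 value minus the mean of the 6 Ctrl arrays of the same stage, with colours limited at 1.2 in each direction. FSH columns are mostly red by the rule that chose the clones, LH columns are mixed, and T0 columns split the set into clones below Ctrl (blue) and clones above it (red).

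LH was below Ctrl by its mean in 15 clones in stage I-II, as in 46.7% of all clones, and in 10 clones in stage III, as in 51.3%. In 23 clones, and in 38.4% of all clones, the sign differed between the stages. The rule capped the LH difference averaged over the stages, which favours differences of opposite sign, so nothing is read from these counts. A difference of at least 0.25 with LH, the size asked of FSH, was reached in one stage by 8 clones. In stage I-II these were 1rt52b16_d_a08, 1rt85c09_a_b05 and tcbk0024.k.07, that is 3 clones, where 14.0% of all clones reached it. In stage III they were tcay0019.j.04, 1rt146d02_d_b01, tcbk0035.l.03, tcbk0010.g.12 and tcbk0057.c.10, that is 5 clones, where 8.76% of all clones did. Of these 8 clones, 1rt52b16_d_a08, 1rt85c09_a_b05 and tcay0019.j.04 stayed at 0.25 or more whichever array was left out. Without Ctrl replicate 58 of stage III the LH difference was 0.166 for 1rt146d02_d_b01, 0.178 for tcbk0035.l.03 and 0.206 for tcbk0057.c.10. Without LH replicate 67 it was 0.138 for tcbk0010.g.12, a clone above background on at most 1 array of any group. The position inferred for that clone is uncertain, since its deposited and scanner values correlated at 0.609 there. Clone 1rt146d02_d_b01 was above background on no stage III array.

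In tcbk0024.k.07 the means of FSH and LH were level in stage I-II, at 0.26 above Ctrl each. The LH arrays read 5.93, 6.08, 6.23, 6.32, 6.48 and 7.54, and without the last, replicate 36, LH minus Ctrl was 0.036. The clone was dim, with 2 Ctrl, 4 FSH and 3 LH arrays of stage I-II above background. A touching spot was 4.08 times brighter, with FSH minus Ctrl of 0.633 in that stage, and its part in the result was not tested. FSH minus LH was above 0 in both stages for the other 36 clones and at least 0.25 in both for 15. Taken by stage, FSH minus LH was below 0 for 53.7% of all clones in stage I-II and for 49.8% in stage III. The shares of all clones that meet either condition in both stages are not given here. The rule favours clones with FSH above LH, so nothing is read from these counts.

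Few of the clones stood apart when single arrays were considered. In the limma fit to all clones, FSH was higher than Ctrl at an adjusted p under 0.05 for 5 clones in stage I-II, where 1.11% of all clones were, and for 7 in stage III, where 0.771% were. Both calls were made for 2 clones, tcbk0035.l.03 and tcad0009.j.11, against 0.465% of all clones. FSH exceeded LH at that threshold for 1 clone in stage I-II (0.0245% of all clones), tcad0009.j.11, and for 3 in stage III (0.135% of all clones), tcad0009.j.11, tcay0004.j.03 and 1rt52b16_d_a08. Clone tcbk0035.l.03 was called in neither stage for that contrast, and its standard error took in the spread of its T0 arrays. No clone of the set was called for LH against Ctrl in either stage, where 2.97% of all clones were called at stage I-II and 0.563% at stage III. All FSH arrays lay above all Ctrl arrays for 7 clones in stage I-II (1.11% of all clones), for 4 in stage III (0.587%) and for 2 in both (0.318%). All FSH arrays lay above all LH arrays for 5 clones in each stage, against 0.294% of all clones at stage I-II and 0.416% at stage III. These contrasts chose the set, so the shares are given for scale alone.

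Several clones sat close to the thresholds. The FSH difference in stage I-II was 0.258 for tcbk0024.k.07, 0.262 for 1rt34l20_d_f10 and 0.265 for tcbk0010.g.12, just inside. It was 0.238 for tcab0002.a.10, 0.23 for tcbk0048.o.20 and 0.227 for 1rt36j23_b_e12, just outside. In stage III it was 0.257 for tcay0013.h.14, 0.26 for tcad0007.g.15 and 0.272 for tcbk0026.a.06 inside.

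Outside that line in stage III stood 1rt86c17_a_b09 at 0.235, with 1rt59l18_d_f09 and tcad0008.n.22 at 0.233 each. The mean LH difference was 0.149 for tcbk0043.m.07, 0.146 for 1rt141d20_d_b10 and 0.144 for tcba0029.p.03 inside. It was 0.152 for tcbk0047.l.13, and 0.153 for both 1rt162i10_c_e05 and tcbk0054.a.01, outside. The FSH threshold was met by 6.67% of all clones in stage I-II and by 6.89% in stage III. Both FSH thresholds together were passed by 180 clones, of which the LH threshold set 143 aside. The edges thus separate clones whose differences were within a few hundredths of a log2 unit of each other, less than the standard errors of 0.108 to 0.314 that the fit gave for FSH minus Ctrl.

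When each Ctrl, FSH or LH array was left out in turn, in 36 repeats, between 32 and 46 clones met the rule. Without replicate 58 of the stage III Ctrl group, 25 of the 37 clones still met it, and without replicate 60 of that group 27 did. The scanner export of 3 arrays, stage III replicates 58 (Ctrl), 61 (FSH) and 67 (LH), lists its columns in another order, and without them 34 clones met the rule, 20 of them among the 37. With group medians in place of means 45 clones met it, 21 of them among the 37. The clones tcad0009.j.11, 1rt41k06_c_f03, tcay0004.j.03, tcbk0043.n.05 and tcad0003.a.14, 5 in all, met the rule in every one of the 36 repeats and under each of 10 other settings of the thresholds, the averaging, the scaling and the source of the signal. Clone tcad0003.a.14 was there with a modest but even FSH difference, 0.38 at stage I-II and 0.37 at stage III. Its LH difference was 0.18 and 0.00.

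The scanner signals were normalised anew over all positions other than the control positions, and were read at the 35 inferred positions. They come from the same arrays, and the deposited values helped to infer the positions. The counts that follow are therefore no independent check of the set. FSH exceeded Ctrl in both stages for all 35 and by at least 0.25 in both for 23. Applied to the signals of all 7949 clones located by order, the rule found 28 clones, of which 14 were in the set. Thus 40.0% of the 35 located clones of the set and 50.0% of the clones found in the scanner signal were shared. With positions taken from the clones' profiles over the arrays instead, it found 30 clones, 14 of them in the set.

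Signal from adjoining spots could be read for the located clones. Of these 35 clones, 13 (37.1%) touched a spot more than 4 times brighter, against 51.9% of the 7949 clones located. Clone 1rt34l20_d_f10 touched 1rt34l03_b_f02, which was 3.72 higher with FSH and 3.39 higher with LH in stage I-II, and 3.03 and 2.76 higher in stage III. The neighbour of tcay0015.n.13, tcad0009.m.08, was 1.59 higher with FSH in stage I-II and 0.975 higher in stage III. With LH that neighbour was 0.931 and 0.497 higher. Clone 1rt146d02_d_b01 touched tcac0003.a.02, a spot 24.2 times brighter that was 0.793 and 0.497 higher with FSH and 0.51 and 0.787 higher with LH. Clone 1rt146d02_d_b01 was itself above background on no array of stage III. Clone tcay0004.j.03, which met the rule under every setting, touched a spot 9.18 times brighter. That spot had FSH minus Ctrl of 0.017 at stage I-II and -0.157 at stage III, and LH minus Ctrl of 0.171 and -0.147. Brighter spots also touched tcay0013.h.14 (6.68 times) and tcac0002.l.06 (38.3 times). Clones tcbk0035.l.03 and tcbk0035.k.02 touched each other. Clone tcbk0037.k.13 was above background on none of the 42 arrays at the position inferred for it. The deposited and scanner values correlated at 0.537 there, against a median of 0.93 over the 35 located clones, so that position is uncertain. The part of neighbouring spots in these differences was not tested.

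The T0 arrays took no part in choosing the clones, so the difference between stages before culture was tested. The median difference of stage III from stage I-II over the set was -0.273 on the log2 scale, where the median over all clones was -0.01. By their means 27 clones were lower, where 50.9% of all clones were, and 10 were higher. In the limma fit, 8 clones fell below the adjusted p threshold of 0.05 as lower in stage III, where 12.0% of all clones were, and 1 as higher, where 11.6% were. Together these 9 were 24.3% of the set, close to the 23.6% of all clones called in either direction.

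Clone tcay0013.h.14 read 10.55, 10.31 and 10.34 at stage I-II and 9.20, 9.53 and 8.96 at stage III at T0. The groups were far apart, and stage III differed by -1.17 ± 0.190 (SE, n = 3 per stage), or 2.25-fold lower (limma adjusted p = 5e-06). In a fit to the T0 arrays alone, the limma adjusted p was 0.00073. Clone 1rt41k06_c_f03 read 7.76, 8.37 and 7.08 at stage I-II and 6.67, 6.48 and 6.74 at stage III. The stage I-II arrays varied widely and still lay above all of stage III. The difference was -1.107 ± 0.214 (SE; limma adjusted p = 9.2e-05), or 2.15-fold lower. From the T0 arrays alone, the limma adjusted p was 0.0089. For tcay0019.j.04, the stage I-II arrays read 8.24, 8.24 and 8.27 and the stage III arrays 6.96, 7.33 and 7.16. There the spread within a stage was small beside the difference of -1.10 ± 0.201 (SE; limma adjusted p = 4.1e-05), or 2.14-fold lower. From the T0 arrays alone, its limma adjusted p was 0.00058.

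One clone was called in the other direction. At T0, tcbk0043.n.05 read 7.93, 8.41 and 8.14 at stage I-II and 9.35, 9.20 and 8.76 at stage III. All stage III arrays were higher, by 0.943 ± 0.206 on average (SE; limma adjusted p = 0.00049), or 1.92-fold. From the T0 arrays alone, the limma adjusted p was 0.0051.

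The other clones called lower in stage III were tcay0004.j.03, tcbk0043.m.07, 1rt153m08_c_g04, tcba0029.p.03 and tcad0009.j.11, with differences of -0.91, -0.987, -0.707, -0.543 and -0.577 in that order. The last of these read 7.26, 8.23 and 7.24 at stage I-II and 7.07, 6.95 and 6.98 at stage III, with one stage I-II array far above the rest. Without that array, replicate 2, the difference was -0.25 with a limma adjusted p of 0.47, and the call was lost under 6 of 15 alternatives in all. The call of tcba0029.p.03 was lost without stage I-II replicate 3 (limma adjusted p = 0.077) and without stage III replicate 6 (limma adjusted p = 0.06), and in the scanner signal, where the difference was -0.318 (limma adjusted p = 0.12). The calls of the other 7 clones held under all 15 alternatives. All stage III arrays were below all stage I-II arrays for 13 clones, against 18.4% of all clones, and above them for 2, against 18.9%.

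**Figure D4:**
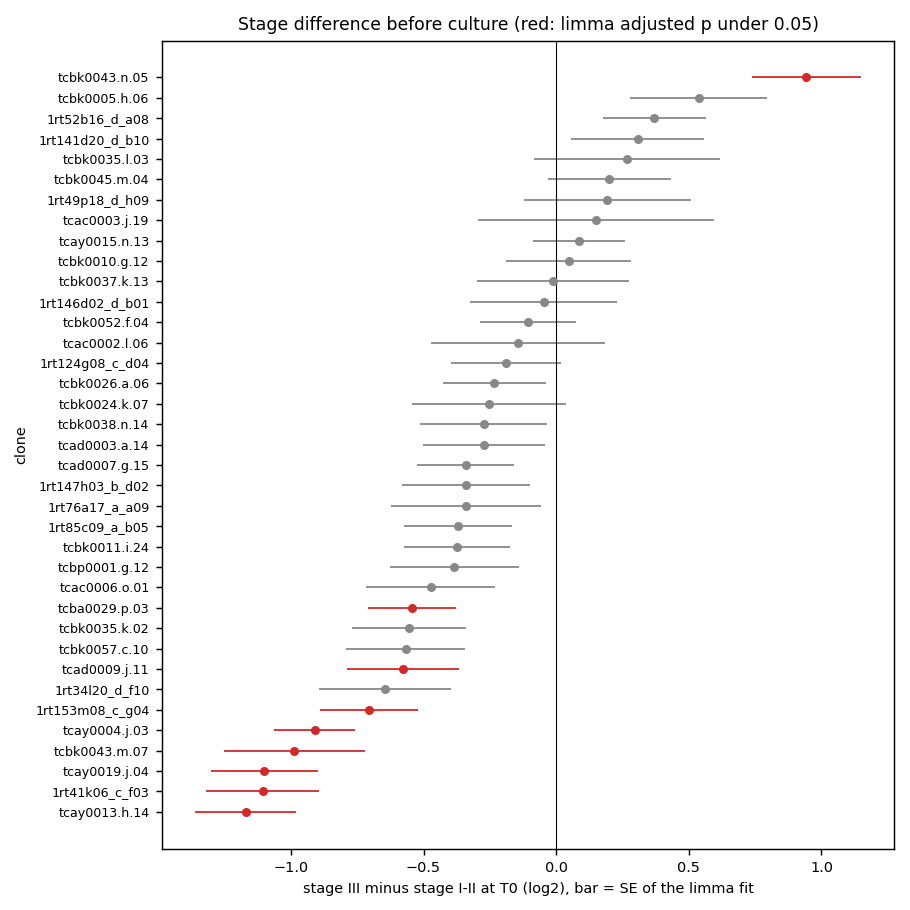
Stage III minus stage I-II before culture for the 37 clones, in log2 units, from the limma fit; points are differences of means of 3 arrays per stage, bars are standard errors, and red marks an adjusted p under 0.05. Of the 9 clones in red, 8 lie to the left of 0, from -0.543 to -1.17, and tcbk0043.n.05 lies at 0.943.

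The Ctrl arrays had been used by the rule, so their stage difference after culture is a description, and no agreement with T0 is read from it. In Ctrl, 29 of the 37 clones were lower in stage III by their means, where 49.1% of all clones were. The median was -0.29 against 0.005 over all clones. In the limma fit, 12 clones were called lower, where 5.32% of all clones were, and 1 was called higher, tcbk0043.n.05, where 5.72% were. Its Ctrl arrays read 7.41 to 7.81 in stage I-II and 8.27 to 9.02 in stage III, with no overlap. The stage difference of 1rt41k06_c_f03 was -0.787 in Ctrl, that of tcay0013.h.14 was -0.417 and that of tcay0019.j.04 was -0.102. Clone tcbk0035.l.03 had a stage difference of -1.2 in Ctrl and of 0.267, the opposite sign, at T0, where it was not called. Without its stage III T0 array at 8.67, replicate 5, the T0 difference was -0.632.

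Ctrl exceeded T0 at the limma threshold for 16 clones in stage I-II, where 14.0% of all clones did, and for 16 in stage III, where 16.2% did. Both stages were called for 14 clones, against 9.50% of all clones. Ctrl was lower than T0 for 4 clones in stage I-II (13.6% of all clones) and for 3 in stage III (16.8%), and in both stages for tcay0013.h.14 and tcbk0011.i.24, that is 2 clones (6.32%). A choice of clones with FSH over Ctrl favours clones whose Ctrl arrays read low, so these counts too are descriptive. The T0 mean lay below Ctrl in both stages for 18 clones, above it in both for 14, and on opposite sides for 5. Taken by stage, it lay above Ctrl for 17 clones in stage I-II, against 54.4% of all clones. In stage III it did so for 16, against 53.7%.

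The greatest rises belonged to 1rt41k06_c_f03, with Ctrl minus T0 of 2.53 at stage I-II and 2.85 at stage III. Its highest T0 array, 8.37, was below its lowest Ctrl array in either stage, 9.22. In stage I-II, tcbk0035.l.03 read 6.64, 6.58 and 6.60 at T0 and was 2.335 higher in Ctrl. In stage III its T0 arrays read 6.15, 8.67 and 5.80, and the array at 8.67 lay above all Ctrl arrays. Ctrl minus T0 was 0.868 there, 1.767 without that array and 0.332 without the one at 5.80. The position of 1rt85c09_a_b05 was above background on no T0 array and on all Ctrl arrays, so that its scanner signal in Ctrl was at least 3.00-fold higher in stage I-II and at least 2.80-fold higher in stage III.

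At T0, tcay0013.h.14 stood above all cultured arrays of its stage: its stage I-II T0 arrays, 10.31 and above, exceeded the highest FSH array at 9.64. FSH lay between Ctrl and T0 there, with group means of 8.785, 9.203 and 10.40 for Ctrl, FSH and T0. For tcad0009.j.11 culture alone was not called, with Ctrl minus T0 of -0.23 at stage I-II and -0.213 at stage III, and FSH minus T0 was 0.425 and 0.665. Without T0 replicate 2 of stage I-II, the array at 8.23, Ctrl minus T0 was 0.097 and FSH minus T0 was 0.752 there.

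**Figure D5:**
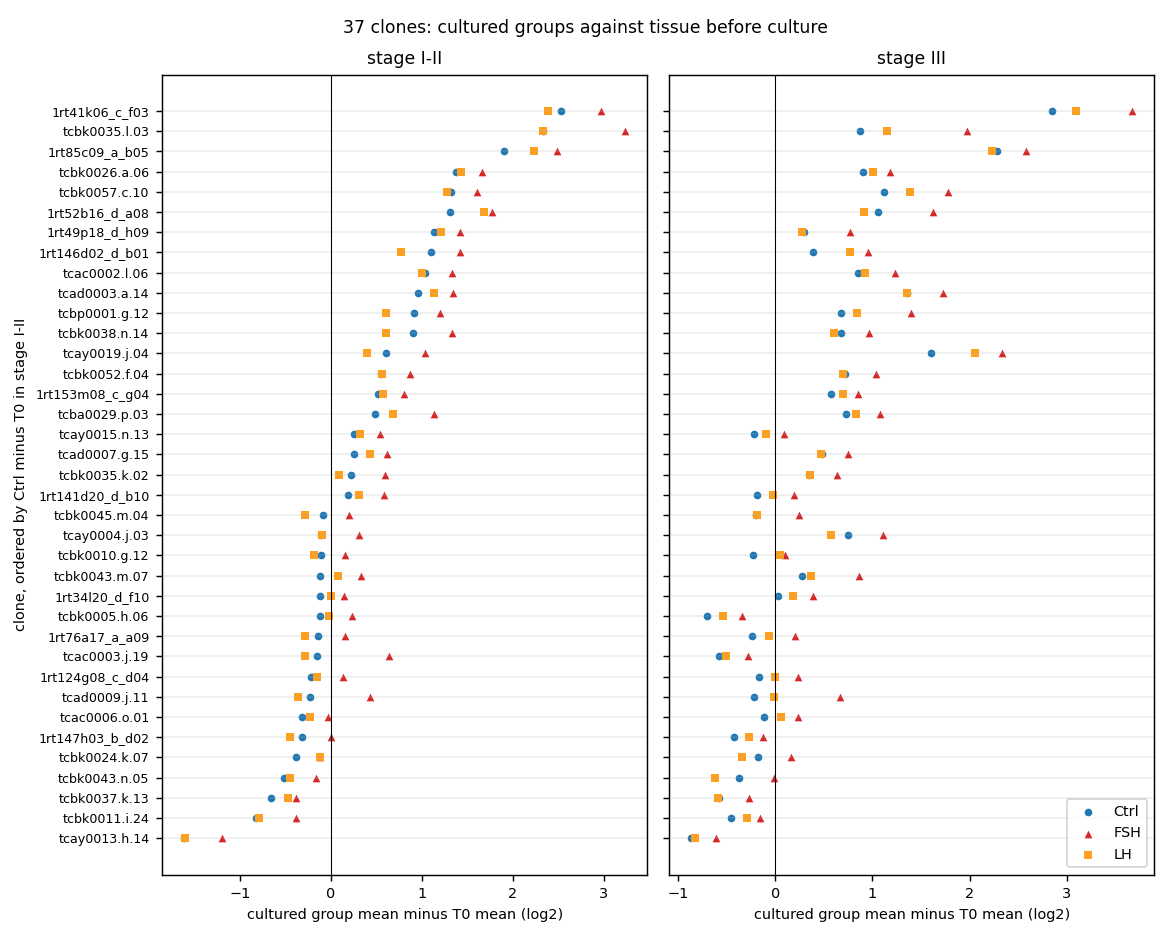
Mean of the Ctrl (blue circles), FSH (red triangles) and LH (orange squares) arrays minus the T0 mean for the 37 clones in stage I-II (left) and stage III (right), in log2 units, with clones ordered by Ctrl minus T0 in stage I-II. Ctrl minus T0 runs from -1.615 to 2.53 in stage I-II and from -0.862 to 2.85 in stage III, and all groups of a stage share the T0 arrays. FSH stands above Ctrl in every row by the rule that chose the clones.

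By the prefix of their identifiers, 14 of the 37 clones (37.8%) begin with tcbk, against 23.1% of all clones. The prefix 1rt was carried by 11 (29.7%, against 34.7%) and tcay by 4 (10.8%, against 17.0%). Prefixes tcad and tcac were carried by 3 each (8.1%, against 5.4% and 3.1%), and tcba by 1 (2.7%, against 10.2%). The last, tcbp0001.g.12, is one of 3 clones with its prefix. The files used here do not state what the prefixes stand for, and no test was made of these shares.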

How the data were processed

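Total RNA from 42 rainbow trout testis samples was measured on 33P arrays. The authors deposited a table of log2 values per clone and array, made with a normalization not given in the sources used here. Per the file headers, the scanner files hold the intensity of each grid position as quantified with AGScan. The table was the main source, because clone identifiers stand only in it. Rows named water and cvu03687 and 849 clone rows held no values. A model with 8 group means was fitted to all 42 arrays with limma 3.58.1 in R 4.3.3, with Benjamini-Hochberg adjustment over 8175 clones. It was also run on simulated data in which a clone had the same spread in all groups. The spread of real clones can differ between groups, so that run is not used as support for the T0 calls. As alternatives, scanner intensities were quantile normalised, with clones placed by their profiles over the arrays or by the order of identifiers across the array. Of 5008 unambiguous profile matches, those that order could predict fell at its position in 98.6%. These matches also served to infer the order. Over all confident predictions from the order, 86.5% equalled the position matched by profile. The 20 clones highest in mean FSH minus LH, the 3 furthest each way at T0 among those called and those nearest each threshold were named. The clones, lists and rules were chosen with earlier results of these data known. Gene lists for pathways and cell types could not be used, since no table paired clones with genes. With 3 to 6 arrays per group, the number of arrays limits the precision.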

Additional observations from a re-analysis of the deposited data

Results flagged for a closer look

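Of the 222 groups of 6 arrays of the 37 clones, 11 had one array far from the others by Dixon's criterion, and chance flags about 1 in 20 groups. Replicate 34 of the stage I-II LH group was low for both tcbk0035.l.03 (8.08, the others 8.91 to 9.34) and tcbk0035.k.02 (6.59, the others 7.0 to 7.23), which touch each other on the array. Replicate 31 of that group was high for 1rt41k06_c_f03 (10.63, the others 9.89 to 10.1). For tcay0004.j.03, replicate 26 of the stage I-II FSH group was low (7.98, the others 8.18 to 8.25) and replicate 69 of the stage III LH group was high (7.81, the others 7.37 to 7.53). Replicate 58 of the stage III Ctrl group was low for tcay0019.j.04 (8.25, the others 8.72 to 8.97). Replicate 67 of the stage III LH group was low for tcac0002.l.06 (8.59, the others 9.34 to 9.64). For tcbk0024.k.07, replicate 36 of the stage I-II LH group was high (7.54, the others 5.93 to 6.48). Replicate 67 of the stage III LH group was high for tcbk0010.g.12 (6.87, the others 5.9 to 6.07), and replicate 71 of that group was high for tcay0015.n.13 (7.64, the others 6.96 to 7.21). Replicate 24 of the stage I-II Ctrl group was low for 1rt147h03_b_d02 (7.52, the others 7.86 to 7.94).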

How the results depend on the processing

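Membership depended on the thresholds: 70 clones passed with an FSH threshold of 0.20, 16 with 0.30, and 24 with an LH threshold of 0.10. Leaving out one array gave 32 to 46 clones. At T0, 1929 clones were called between the stages, 1250 among the brighter clones alone (fewer clones were tested), and 1472 to 1655 without one T0 array. Members called numbered 8 to 11 under all alternatives, also without one T0 array. The T0 differences of the 4 clones given in full kept direction and call in each of 15 alternatives. Without one T0 array they ran from -1.32 to -1.035 (tcay0013.h.14), from -1.435 to -0.79 (1rt41k06_c_f03), from -1.19 to -1.005 (tcay0019.j.04) and from 0.82 to 1.115 (tcbk0043.n.05). The median LH difference in stage I-II, 0.03 in the deposited table, was 0.118 with scanner signals placed by profile and 0.119 when placed by order. The median FSH minus LH there, 0.332 in the table, was 0.208 and 0.212 with these signals, and 0.269 over members touching no spot more than 4 times brighter. The cause was not tested. Placing by order, leaving out single arrays from the differences of single clones and leaving out the 3 arrays whose scanner export lists another column first were chosen after seeing the data. The export layout could not be fitted as a block at T0, where all arrays share one layout. No paired analysis was made. The replicate numbers run on from group to group, and no label shows whether fragments of the same testes were divided over the groups. Dim clones limit the rest: 15 of 35 located members were at background on some array, a count given without the share over all located clones.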
